A study of Rattus norvegicus with 6 samples.

Results

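The genes for collagens, laminins and the proteins that link them were followed through the cell classes of the rat cerebral hemisphere after acute carbon monoxide poisoning. Members were taken by symbol: every collagen chain gene (Col, a number, a and a number), every laminin chain gene (Lama, Lamb or Lamc with 1 digit), and Nid1, Nid2, Agrn and Sparc. They were 55 of the 15227 genes in the count tables. The chain genes Col6a3, Col6a5, Col21a1, Col23a1, Lama3 and Lamb4 were not among those genes and could not be followed. Hspg2, the gene for perlecan, was not analysed here. Of the 55, 52 had at least 30 unique molecular identifiers (UMIs, counted RNA molecules) over the cell classes, and Col6a4, Col9a1 and Lamb3 had fewer.

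Brain cell suspensions, prepared from the hemisphere by trypsin digestion, were sequenced on the droplet-based 10x Genomics platform as 3 libraries from normal control rats (NC) and 3 from poisoned rats (CO). CO rats breathed 1000 ppm carbon monoxide for 40 minutes and then 3000 ppm for 20 minutes. A rat counted as severely poisoned when its consciousness was impaired and more than 60% of its hemoglobin carried carbon monoxide. The sources used here do not give strain, sex, age or the time from exposure to sampling. The labels give the same dissociation for both groups.

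The libraries held between 39494470 and 47322264 UMIs, and the 38027 barcodes that reached 500 UMIs and 200 genes entered the analysis. Barcodes were placed in a class by marker genes alone, none of them a member, with at least 3 markers detected and a lead of 2 over the next class. Of these barcodes, 29002 entered a class, 6412 had too few markers and 2613 had markers of several classes. The classes are named after their markers and called "-like" because no deposited annotation was used. The description speaks of 3 rats a group, but the 3 libraries of NC spread 1.15 times and those of CO 0.941 times as much as parts of a single pool of cells would. Each group was therefore counted as 1 sample (n = 1), the comparisons of NC and CO below give no p-value (a test that treats the libraries as replicates was run only as an alternative), and all intervals are exact 95% intervals that cover counting error only. For 34 members alone the spread was 0.872 times (NC) and 1.37 times (CO) that of parts of a pool. The intervals can therefore be too narrow for members in CO. Of all 15 pairs of libraries, 1 barcode was shared.

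Basement membranes are thin sheets in which a laminin network and a collagen IV network are held together by nidogens and by the proteoglycans agrin and perlecan. In the brain they wrap every vessel, with an endothelial sheet on the inside and a sheet laid down by mural cells and astrocyte endfeet on the outside, and they underlie the meninges. Fibrillar collagens, in contrast, belong to the adventitia of larger vessels and to the meninges, where fibroblasts make them. SPARC is a secreted glycoprotein that binds collagens and is made in the brain by microglia and vessels.

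Most members had their highest level in the cells of vessel walls or in fibroblast-like cells. Levels are in CPM, a gene's UMIs scaled to the same fixed total of UMIs in every class, over both groups, and were compared only between classes for the same gene. Of the 52 members with enough UMIs, 18 were highest in the fibroblast-like class, 11 in the pericyte-like class and 8 in the smooth muscle-like class. Astrocyte-like cells were the highest class for 5 members, choroid plexus-like cells for 3, ependymal-like and oligodendrocyte-like cells for 2 each, and macrophage-like, monocyte or dendritic-like and neuroblast or neuron-like cells for 1 each. No member was highest in endothelial-like or microglia-like cells. For 19 members the library values of the highest class did not overlap those of the next class; for the other members the order of the first 2 classes was within the spread of the libraries.

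**Figure D1:**
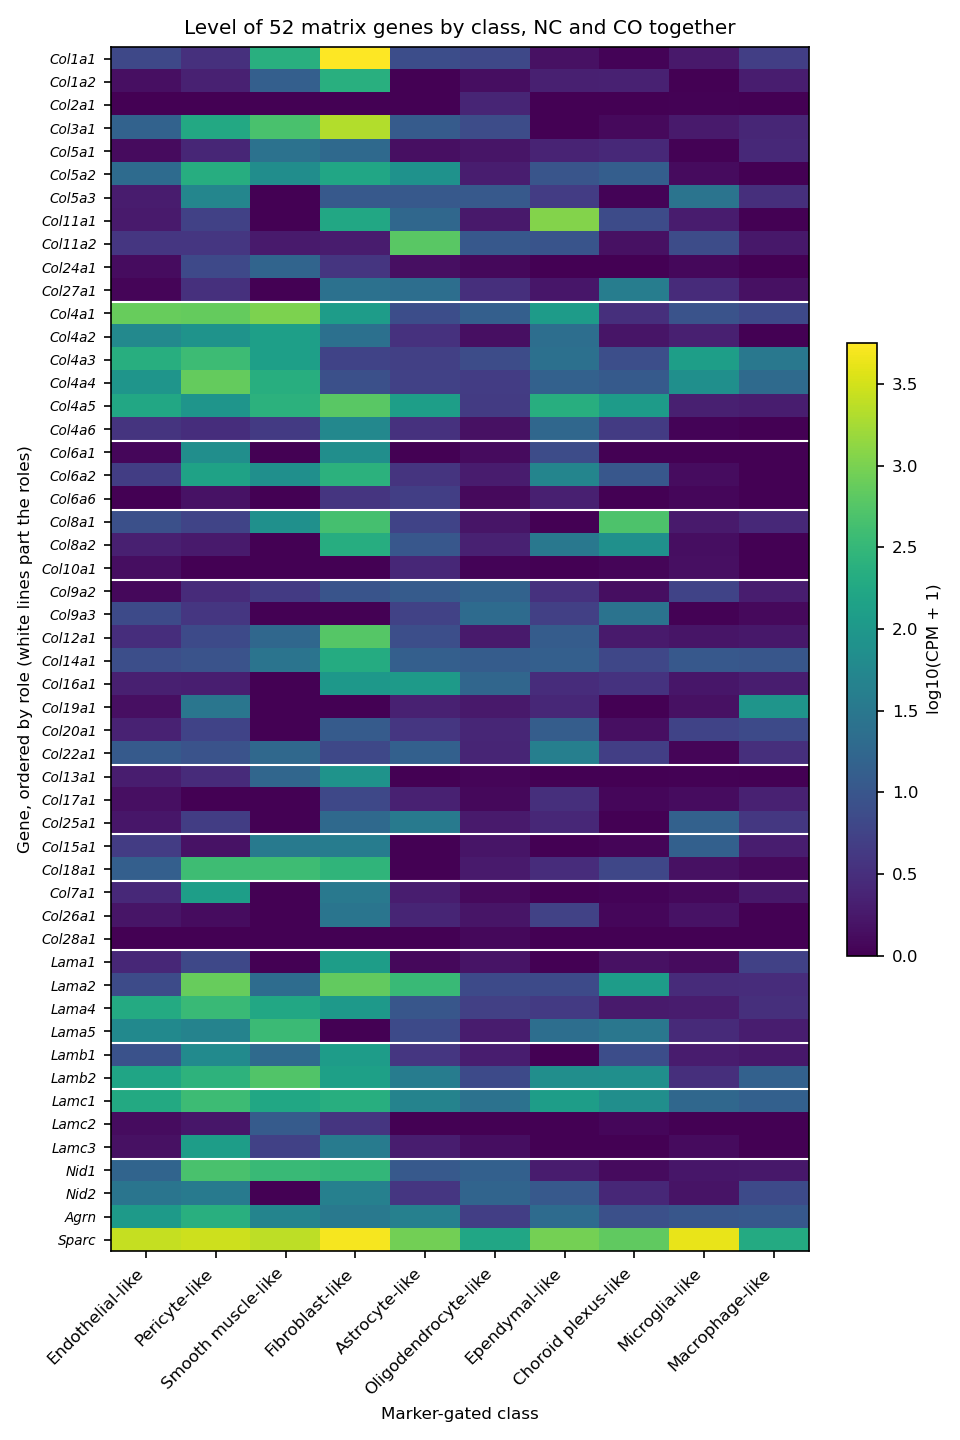
Heat map of the level of the 52 members with at least 30 UMIs (rows, ordered by role) in the 10 classes described (columns); colour is log10 of CPM plus 1, over all 6 libraries. Type I and III collagen fill the fibroblast-like column, where Col4a5, Col4a6, Lama1 and Lamb1 are also highest. Several other collagen IV and laminin chains fill the endothelial-, pericyte- and smooth muscle-like columns. Single collagens stand out in astrocyte-, ependymal- and choroid plexus-like cells.

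Several members were far higher in 1 class than in the next. Col1a1, the main chain of type I collagen fibrils, stood at 5676 CPM in fibroblast-like cells against 236 CPM in smooth muscle-like cells, the next class. Col12a1, a collagen that sits on the surface of type I fibrils, stood at 583 against 17 CPM in the same 2 classes. Lama1, the alpha chain of laminin in the outer limiting membrane of the brain, stood at 121 CPM in fibroblast-like and 5.41 CPM in pericyte-like cells. Outside the vessel wall, Col11a2, a chain of a minor fibrillar collagen best known from cartilage, stood at 628 CPM in astrocyte-like cells and at 12.7 CPM in the next class. Its partner chain Col11a1 was highest elsewhere, at 1141 CPM in ependymal-like cells against 177 CPM in fibroblast-like cells. Col19a1, a fibril-associated collagen, was the only member led by macrophage-like cells, at 91.2 CPM against 29.0 CPM in pericyte-like cells.

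The comparison of CO with NC asks which of these genes differ in each class after poisoning. For it, the UMIs of each class were added up within a group and scaled by trimmed-mean (TMM) factors, and a ratio is the log2 of CO over NC. A gene was called higher or lower when the groups differed at least 2-fold at a mean of at least 16 CPM with at least 30 UMIs, and when the interval of the log2 ratio left out 0. Over the 10 classes 263 pairs of a member and a class were compared, 138 were past that level, and 23 were called, 11 higher and 12 lower in CO. Over all genes past the level, 4.46% of 66722 gene and class pairs were called higher and 4.86% lower.

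In endothelial-like cells (2830 NC and 2042 CO), 1 of 13 members past the level was called higher, where 2.79% of all genes were, and none lower, where 1.56% were. The library values of NC and CO did not overlap for 8 of the 13, against 54% of all genes there. In pericyte-like cells (598 and 619), 1 of 24 was called higher (3.85% of all genes) and none lower (3.17%), and 8 did not overlap (32.5%). In smooth muscle-like cells, which numbered only 71 and 45, 3 of 21 were called higher (10.9%) and 2 lower (14.3%), and 9 did not overlap (26.1%). In fibroblast-like cells (46 and 35), 1 of 31 was called higher (12.4%) and 6 lower (16%), and 2 did not overlap (20.4%). The last 2 classes are so small that many genes passed the 2-fold mark in each direction.

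Among glial and ventricular cells, astrocyte-like cells (467 and 610) had 0 of 11 members called higher (3.32% of all genes) and 1 lower (4.44%), with 5 not overlapping (27.3%). Oligodendrocyte-like cells (4012 and 1503) had 1 of 5 called higher (0.761%) and none lower (0.567%), with 4 not overlapping (41.7%). In ependymal-like cells (165 and 189), 1 of 14 was called higher (5.07%) and 1 lower (4.87%), with 4 not overlapping (31.2%). Choroid plexus-like cells (323 and 293) had 2 of 10 called higher (2.88%) and none lower (1.95%), with 6 not overlapping (41.4%). Among myeloid cells, microglia-like cells (5705 and 6403) had 0 of 5 called in either direction (0.605% higher and 0.525% lower), with 4 not overlapping (54.7%). Macrophage-like cells (477 and 370) had 1 of 4 called higher (4.41%) and 2 lower (4.72%), with 2 not overlapping (28.4%).

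**Figure D2:**
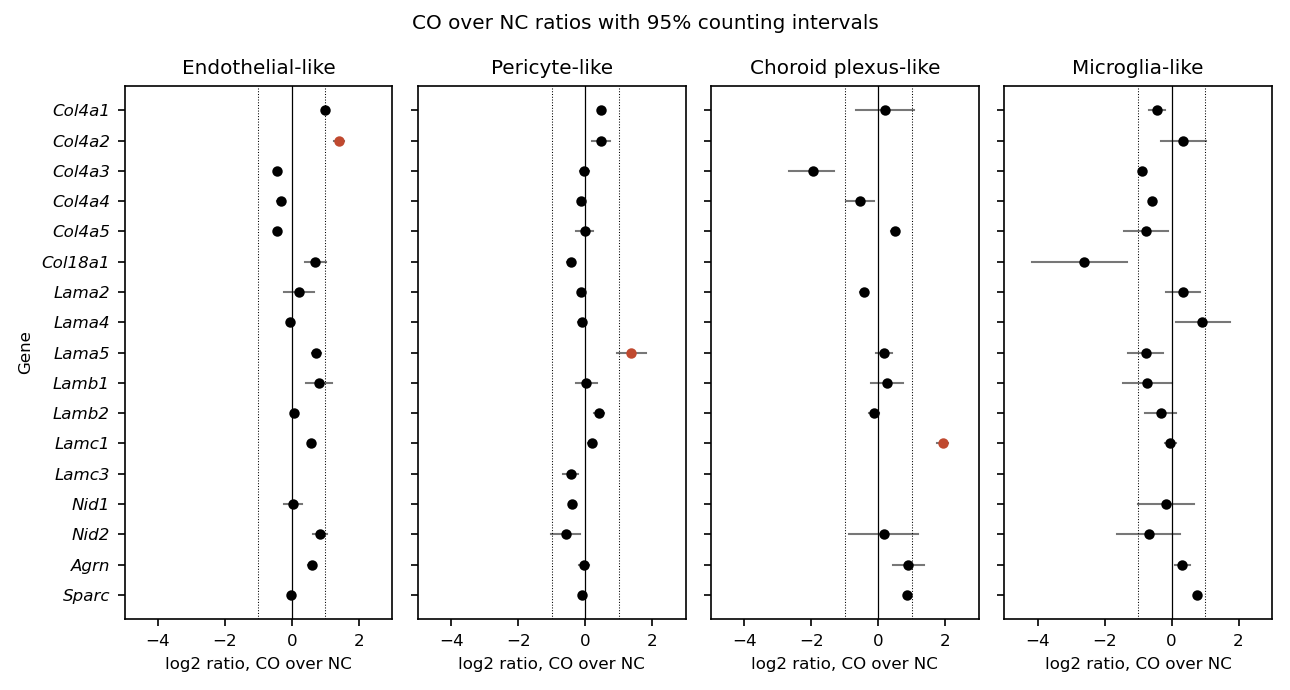
Log2 ratios of CO over NC (x axis) for 17 members in endothelial-, pericyte-, choroid plexus- and microglia-like cells, with 95% counting intervals as bars; dotted lines mark 2-fold, red points are called higher and black points are not called, also where a low level kept a gene past the line from a call. Col4a2 in endothelial-like, Lama5 in pericyte-like and Lamc1 in choroid plexus-like cells lie to the right of the 2-fold line.

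Collagen IV, the network collagen of all basement membranes, was the group in which genes of a shared locus could be followed side by side. Its 6 genes lie as 3 head-to-head pairs: Col4a1 with Col4a2, whose chains form the trimer found in every basement membrane, Col4a3 with Col4a4, whose chains join the Col4a5 chain in specialised membranes such as the kidney filter, and Col4a5 with Col4a6. In the RefSeq annotation of the rat assembly GRCr8, which is not the Rnor_6.0 build of the deposited counts, the starts of Col4a1 (plus strand) and Col4a2 (minus strand) were separated by 76 bases, chr16:84885521-84885596. Those of Col4a3 (plus) and Col4a4 (minus) were separated by 412 bases, and those of Col4a5 and Col4a6 on chromosome X by 1414 bases. The whole stretch between Col4a1 and Col4a2, and the 250 bases before the start of Col4a3 (chr9:91323740-91323989), are shown because the 2 genes of each pair share them. Both are on the plus strand, with capitals marking a GC box.
Col4a1/Col4a2: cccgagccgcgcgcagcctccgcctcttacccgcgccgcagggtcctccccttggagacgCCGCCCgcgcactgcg
Col4a3/Col4a4: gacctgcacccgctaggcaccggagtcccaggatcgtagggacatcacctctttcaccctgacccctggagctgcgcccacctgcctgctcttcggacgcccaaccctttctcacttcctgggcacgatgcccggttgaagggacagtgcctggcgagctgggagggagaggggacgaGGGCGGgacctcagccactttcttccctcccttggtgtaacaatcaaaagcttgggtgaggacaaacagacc

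The stretch between Col4a1 and Col4a2 had a GC content of 78.9% and that before Col4a3 62%, where windows of the same lengths had medians of 53.9% and 51.2% over all promoters in the RefSeq table. A GC box (GGGCGG, searched on both strands) occurred 1 time in each, on the minus strand in the first and on the plus strand in the second. It was present in 18.1% of all promoter windows of 76 bases and in 30.5% of those of 250 bases. A CCAAT box (CCAAT) and a TATA box (TATAAA) were found in neither stretch; they were present in 13% and 4.61% of the shorter windows and in 34.0% and 12.9% of the longer ones. None of these 3 sequences overlaps another as searched. A match is a match of letters only.

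Col4a1 and Col4a2 both had higher values in endothelial-like cells of CO. Col4a2 rose from 33.9, 32.8 and 31.9 CPM in the NC libraries to 82.2, 87.4 and 90.1 CPM in the CO libraries, a log2 ratio of 1.40 (1.25 to 1.55). All CO libraries were above all NC libraries, and the ratio lay between 1.36 and 1.44 when any library was left out. Col4a1 stood at 536, 509 and 517 CPM in NC and 1064, 1025 and 981 CPM in CO. The groups did not overlap, but the log2 ratio of 0.98 (0.94 to 1.02) stayed just under the 2-fold mark; it was 1.02 with cells thinned to 2000 UMIs and 1.00 without the 10% of cells with most UMIs. In these cells 15.8 Col4a1 UMIs were counted per Col4a2 UMI in NC (14.5 to 17.3) and 11.8 in CO (11.2 to 12.6), so Col4a2 had the larger ratio of the 2 partners.

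The same pair differed less in mural cells. In pericyte-like cells Col4a1 stood at 638, 608 and 555 CPM in NC and 896, 833 and 761 CPM in CO (log2 ratio 0.47, 0.38 to 0.57), and Col4a2 had a ratio of 0.46 (0.19 to 0.74). NC and CO libraries did not overlap for either gene, and neither was called. Endothelial markers were also present in these cells: their summed level was 4894 to 4928 CPM over the NC libraries and 4693 to 5723 CPM over the CO libraries, with all 7 detected, 6 higher in CO, and 35.8% (NC) and 39.9% (CO) of the level in endothelial-like cells. Their part in the pericyte values was not tested. In smooth muscle-like cells, the class with the highest Col4a1 level (1015 CPM, against 753 CPM in endothelial-like cells with overlapping libraries), Col4a1 was lower in CO: 1227, 916 and 1237 CPM in NC and 915, 904 and 778 CPM in CO. The lowest NC library lay just above the highest CO library, and the log2 ratio was -0.41 (-0.58 to -0.24). Col4a2 there had a ratio of -0.84 (-1.35 to -0.35) with overlapping libraries, and NC library 1 decided its sign: without it the ratio was 0.07. It passed the call without NC library 2 (-1.13), NC library 3 (-1.17) or CO library 2 (-1.25).

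**Figure D3:**
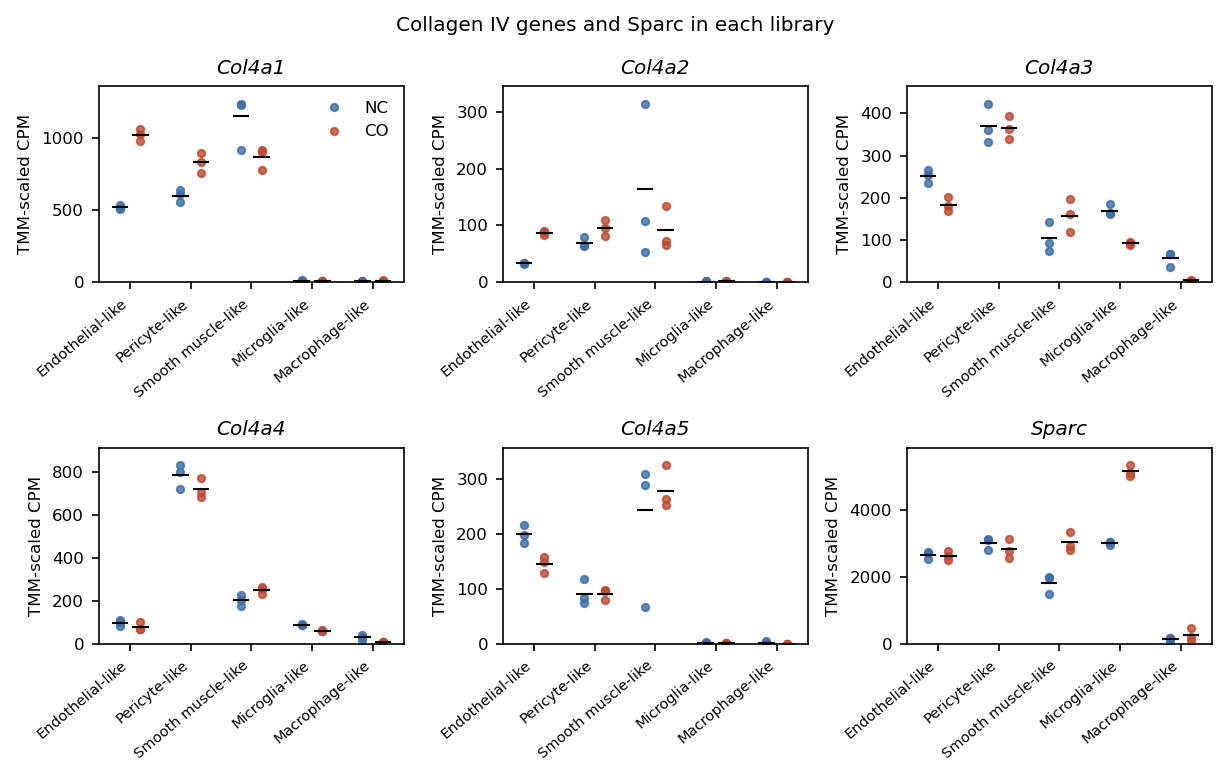
TMM-scaled CPM (linear axes from 0) of 5 collagen IV genes and Sparc in endothelial-, pericyte-, smooth muscle-, microglia- and macrophage-like cells; each point is a library (NC and CO in separate colours) and each black bar the group value. Col4a1 and Col4a2 lie higher in CO in endothelial- and pericyte-like cells, and Col4a3 lies lower in CO in endothelial-, microglia- and macrophage-like cells.

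Col4a3 and Col4a4 had another distribution over the classes. Both were highest in pericyte-like cells, Col4a3 at 367 CPM against 221 CPM in endothelial-like cells and Col4a4 at 746 CPM against 226 CPM in smooth muscle-like cells, each with library values apart. They were also present in microglia-like cells, at 56.9% (Col4a3) and 81.1% (Col4a4) of their endothelial-like level. The other collagen IV genes were near the trace level of vessel RNA there: Col4a1 at 1.09%, Col4a2 at 2.01% and Col4a5 at 0.646% of the endothelial-like level, beside endothelial markers at 0.619% in NC and 0.626% in CO. The number of Col4a3 UMIs per Col4a4 UMI also differed between classes, with 2.57 in endothelial-like cells of NC (2.43 to 2.73), 1.91 in microglia-like cells (1.83 to 2.0) and 0.473 in pericyte-like cells (0.437 to 0.512).

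In microglia-like cells both genes were lower in CO. Col4a3 stood at 184, 161 and 165 CPM in NC and 93.3, 95.5 and 87.2 CPM in CO, a log2 ratio of -0.88 (-0.94 to -0.82). Col4a4 stood at 88.7, 87.6 and 89.7 CPM in NC and 58.6, 57.5 and 62.7 CPM in CO, a ratio of -0.57 (-0.65 to -0.49). The groups were apart for both genes, and neither reached the 2-fold mark. With every cell thinned to 2000 UMIs, which left out 231 NC and 141 CO cells, 22.4% of NC and 12.4% of CO cells had a Col4a3 UMI (38.7% and 25.3% unthinned, at medians of 5390 and 6252 UMIs). In T or NK-like cells 0 of 167 thinned NC cells and 0 of 93 thinned CO cells had one, which allows up to 2.18% and 3.89% (medians of 5461 and 6035 UMIs before thinning). The summed level of oligodendrocyte markers in the same class was 595 to 612 CPM in NC and 1025 to 1027 CPM in CO, with all 8 detected and 1 higher in CO, and its part in these ratios was not tested.

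Macrophage-like cells showed the same direction at a lower level. Col4a3 fell from 67.7, 36.4 and 67.1 CPM in NC to 3.34, 5.56 and 3.02 CPM in CO, a log2 ratio of -3.83 (-5.07 to -2.80) that rested on 116 and 8 UMIs. Every CO library was far under every NC library, and the ratio lay between -4.17 and -3.67 when any library was left out. Col4a4 fell from 38.9, 28.8 and 17.9 CPM to 6.69, 9.73 and 9.05 CPM, a ratio of -1.74 (-2.61 to -0.94); the groups did not overlap, but without NC library 1 it stood at -1.44 with too few UMIs to be called. The summed endothelial markers in this class were at 72.2 to 168 CPM in NC and 104 to 161 CPM in CO, with all 7 detected and 5 higher in CO. Those of oligodendrocytes were at 302.4 to 410.5 CPM in NC and 923 to 1161 CPM in CO, with all 8 detected and 4 higher in CO, and their part in the ratios was not tested.

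In the vessel wall, Col4a3 was lower in CO in endothelial-like cells, at 235, 254 and 266 CPM in NC and 202, 181 and 167 CPM in CO, a log2 ratio of -0.46 (-0.53 to -0.38). The groups did not overlap. Smooth muscle-like cells gave 0.59 (0.11 to 1.08) for Col4a3, with overlapping libraries and a value of 0.00 in thinned cells, and 0.29 (-0.07 to 0.65) for Col4a4, with the CO libraries just above the NC libraries. In ependymal-like cells Col4a4 was higher in CO, on 5 UMIs in NC and 56 in CO (2.98, 1.68 to 4.66, no overlap), under the level for a call. Pericyte-like cells gave -0.02 (-0.15 to 0.11) for Col4a3 and -0.12 (-0.21 to -0.04) for Col4a4, both with overlapping libraries. Whether the classes differ in this ratio was not tested.

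Col4a5, whose chain is shared by both specialised collagen IV trimers, was highest in fibroblast-like cells (628 CPM, libraries from 139 to 1261), followed by smooth muscle-like cells (260 CPM). In endothelial-like cells it was lower in CO, at 198, 183 and 216 CPM in NC and 149, 157 and 129 CPM in CO (log2 ratio -0.46, -0.54 to -0.38). The groups did not overlap. In choroid plexus-like cells it was higher in CO, with a ratio of 0.50 (0.38 to 0.61) and no overlap, and in pericyte-, astrocyte- and ependymal-like cells the interval held 0. Its head-to-head partner Col4a6 was past the level only in fibroblast-like cells, with a ratio of -0.65 (-1.49 to 0.15), and in ependymal-like cells, with -0.27 (-0.96 to 0.42). In fibroblast-like cells it was called lower without NC library 1 (-1.26), and without NC library 2 it was 0.095.

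Laminins are cross-shaped trimers of an alpha, a beta and a gamma chain, and the alpha chain differs between the sheets of a vessel. Lama4 and Lama5 are the endothelial alpha chains, and Lama2 is that of the outer, parenchymal sheet. Lama2 was highest in pericyte-like cells (753 CPM) and nearly as high in fibroblast-like cells (705 CPM). Lama4 was highest in pericyte-like cells (354 CPM, against 198 CPM in endothelial-like cells). Lama5 was highest in smooth muscle-like cells (360 CPM, against 59.1 CPM in endothelial-like cells), and the libraries of these 2 classes were apart, as they were for Lama4. Lamb2, a beta chain of vessel walls and synapses, was also highest in smooth muscle-like cells, at 550 CPM against 270 CPM in pericyte-like cells. Lamc1, the gamma chain of nearly all basement membrane laminins, was highest in pericyte-like cells (373 CPM), and Lamc3, a gamma chain of restricted distribution, stood at 124 CPM there against 36.0 CPM in fibroblast-like cells.

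Lama5 had higher values in CO in both endothelial- and pericyte-like cells, and Lama4 had close values. In pericyte-like cells Lama5 rose from 23.0, 39.6 and 12.4 CPM in NC to 84.6, 57.4 and 47.3 CPM in CO, a log2 ratio of 1.38 (0.96 to 1.81). All CO libraries were above all NC libraries. The ratio ranged from 1.03 to 1.86 when a library was left out, and was 0.86, under the call, with a stricter gate. Endothelial markers in pericyte-like cells were at 35.8% (NC) and 39.9% (CO) of their endothelial-like level, and their part was not tested. In endothelial-like cells Lama5 stood at 44.5, 42.6 and 48.6 CPM in NC and 79.1, 67.4 and 78.1 CPM in CO, a ratio of 0.73 (0.59 to 0.87). The groups were apart without reaching 2-fold. In smooth muscle-like cells, where Lama5 was highest, its ratio was 0.73 (0.44 to 1.02) with overlapping libraries. Without the 10% of cells with most UMIs it was 0.08 there. Lama4 had intervals that held 0 in endothelial-like cells (-0.07, -0.14 to 0.01) and in pericyte-like cells (-0.10, -0.23 to 0.03).

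Lama2, the parenchymal alpha chain, had lower values in CO in the cells around the vessel. Astrocyte-like cells stood at 470, 443 and 431 CPM in NC and 229, 292 and 278 CPM in CO, a log2 ratio of -0.75 (-0.89 to -0.61). The groups did not overlap, and the ratio was short of 2-fold. In choroid plexus-like cells the ratio was -0.44 (-0.56 to -0.32), again without overlap. In pericyte-like cells it was -0.14 (-0.22 to -0.05), and the libraries overlapped. In fibroblast-like cells Lama2 fell from 774, 1980 and 560 CPM to 315, 471 and 373 CPM, a ratio of -1.35 (-1.60 to -1.11), which NC library 2 decided: without it the ratio was -0.88 and not called.

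Lamc1 had its clearest difference in choroid plexus-like cells, the epithelium that secretes cerebrospinal fluid and stands on a basement membrane of its own. It rose from 34.8, 31.8 and 32.2 CPM in NC to 153, 115 and 111 CPM in CO, a log2 ratio of 1.93 (1.76 to 2.09). The lowest CO library was more than 2-fold above the highest NC library, the ratio lay between 1.75 and 2.06 when a library was left out, and the call held under every alternative tried. The summed level of oligodendrocyte precursor markers in this class was 65.8 to 73.6 CPM in NC and 169 to 243 CPM in CO, with 2 of 6 higher in CO and C1ql1, Tnr and Gpr17 at 0 in both groups; its part was not tested. Endothelial markers there were at 12.9 to 27.9 CPM in NC and 14.9 to 18.9 CPM in CO, with 3 of 7 higher in CO.

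Other classes gave smaller or opposite values of Lamc1. In endothelial-like cells it stood at 153, 142 and 162 CPM in NC and 244, 223 and 215 CPM in CO, a log2 ratio of 0.58 (0.50 to 0.65) with no overlap. In ependymal-like cells it rose from 111, 28.8 and 78.4 CPM to 117, 152 and 205 CPM, a ratio of 1.01 (0.73 to 1.30). The CO libraries lay above the NC libraries by little, and without NC library 2 (0.69) or CO library 3 (0.81) it was not called. Endothelial markers in that class were at 11.7 to 35.6 CPM in NC and 35.1 to 331 CPM in CO, with 6 of 7 higher in CO, and their part was not tested. Astrocyte-like cells had lower Lamc1 in CO (-0.65, -1.04 to -0.27, no overlap), and in microglia-like cells the interval held 0 (-0.03, -0.19 to 0.13). In fibroblast-like cells the ratio was 0.82 (0.45 to 1.20), with overlapping libraries; it was called higher without NC library 1 (1.11) or CO library 1 (1.20) and was 0.32 without CO library 2.

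The beta chains had small ratios in vessels. Lamb2 had a log2 ratio of 0.07 (-0.01 to 0.16) in endothelial-like cells and of 0.42 (0.26 to 0.57) in pericyte-like cells, where NC and CO libraries did not overlap. In smooth muscle-like cells it stood at 437, 495 and 450 CPM in NC and 561, 675 and 711 CPM in CO (0.50, 0.27 to 0.73), again apart. In astrocyte-like cells Lamb2 was lower in CO, with a ratio of -0.88 (-1.32 to -0.44) and no overlap, and it was called without CO library 3 (-1.17) and was -0.17 with the stricter gate. Lamb1, the other common beta chain, had a ratio of 0.79 (0.40 to 1.19) in endothelial-like cells. Its level there was too low for the call, and the ratio was -0.10 in thinned cells. In pericyte-like cells the Lamb1 ratio was 0.03 (-0.28 to 0.34). In smooth muscle-like cells Lamb1 had 19 UMIs in NC and 3 in CO, too few to be compared. Lamc3 in pericyte-like cells was lower in CO (-0.43, -0.65 to -0.22), with no overlap.

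The linkers of the network differed in direction from class to class. Nid1, the nidogen that bridges laminin and collagen IV, was highest in pericyte-like cells (470 CPM) and was lower there in CO, at 569, 559 and 496 CPM in NC and 443, 406 and 393 CPM in CO (log2 ratio -0.38, -0.49 to -0.27). The groups were apart. Nid1 was higher in CO in smooth muscle-like cells (0.51, 0.23 to 0.81, no overlap), and in endothelial-like cells the interval held 0 (0.03, -0.25 to 0.30). Nid2, the second nidogen, was higher in CO in endothelial-like cells, at 15.9, 23.6 and 21.1 CPM in NC and 34.4, 40.3 and 33.5 CPM in CO (0.83, 0.63 to 1.04), with no overlap. Nid2 fell in fibroblast-like cells (-1.43, -2.55 to -0.42), from 35 to 11 UMIs; without NC library 1 (-0.87) or CO library 1 (-0.92) it was not called.

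Agrn, the heparan sulfate proteoglycan agrin of brain capillaries, was highest in pericyte-like cells (231 CPM, against 110 CPM in endothelial-like cells, libraries apart). In endothelial-like cells it stood at 79.3, 98.4 and 89.4 CPM in NC and 137, 139 and 126 CPM in CO, a log2 ratio of 0.59 (0.49 to 0.69) without overlap. Pericyte-like cells gave -0.03 (-0.19 to 0.13). In ependymal-like cells Agrn fell from 35.0, 34.6 and 27.7 CPM to 10.1, 13.8 and 9.63 CPM, a ratio of -1.53 (-2.22 to -0.86). All CO libraries were well under all NC libraries there, on 59 and 29 UMIs, too few for a call with a minimum of 100 counts or in thinned cells. In smooth muscle-like cells Agrn rose by a ratio of 1.06 (0.23 to 1.94) on 19 and 38 UMIs; the call was lost without NC library 2 (0.90), NC library 3 (0.82) or CO library 2 (0.82), and with scaling by total counts (0.95).

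Of the 11 fibrillar collagens, the rope-forming chains, 5 were past the level in fibroblast-like cells. There 2 were called lower in CO (16% of all genes) and none higher (12.4%). Both calls were lost without the most loaded cell of each group and without some single libraries. These cells held 22779 CPM of members in NC (libraries 16655 to 29257) and 13718 CPM in CO (9109 to 18355), more than any other class described. Col3a1, the chain of type III fibrils, fell from 2477, 3378 and 2621 CPM to 614, 1759 and 1792 CPM, a log2 ratio of -1.005 (-1.14 to -0.87). The groups did not overlap, but the call was lost without NC library 2 (-0.92), NC library 3 (-0.98) or CO library 1 (-0.62), and without the cell with most Col3a1 UMIs in each group (-0.95). Col1a1 fell by a ratio of -1.23 (-1.31 to -1.15), from 5592, 2843 and 14842 CPM to 1887, 2693 and 5345 CPM. Its libraries overlapped, 1 cell held 40.3% of the NC UMIs, and without the most loaded cell of each group the ratio was -0.67. It was -0.49 without NC library 3 and -0.93 without CO library 1, not called in either case. Col1a2, the other chain of type I collagen, had a ratio of -0.18 (-0.56 to 0.19). In RefSeq, Col1a1 overlaps Sgca, and the sources used here do not say whether counting used strand.

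The fibroblast-like class itself differed between the groups in its markers, and 46.9% of its cells sat at a limit of the gate. The summed fibroblast markers were at 6037 to 7877 CPM in NC and 3458 to 4752 CPM in CO, with 2 of 8 higher in CO. Astrocyte markers were at 2153 to 5367 CPM in NC and 915 to 2885 CPM in CO, with none of 8 higher in CO and Aqp4, Slc1a2, Ntsr2, Fgfr3 and Aldh1l1 at 0 in both groups. Pericyte markers were at 54.3 to 205 CPM in NC and 265 to 916 CPM in CO, with 2 of 8 higher and Abcc9, Rgs5, Higd1b and Atp13a5 at 0. The part of these differences in the collagen ratios was not tested.

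Further members called in fibroblast-like cells rested on few UMIs or on single libraries. Col14a1, a collagen on the fibril surface, fell by a log2 ratio of -1.15 (-1.60 to -0.71); without NC library 3 it was -0.77 and without CO library 1 -0.66, not called, and without CO library 3 it was -1.92. Col26a1 fell from 26 to 4 UMIs (-2.46, -4.44 to -0.93), and without NC library 1 the ratio was 0.26. Without NC library 2 (-2.71), CO library 1 (-3.82) or CO library 2 (-2.35) too few UMIs were left for a call. Col7a1, the anchoring fibril collagen, rose from 7 to 28 UMIs (2.24, 1.01 to 3.68), and the ratio was 0.40 without CO library 1 and 3.06 without NC library 1. Col4a5, Col6a2 and Col12a1, which were highest in these cells, had intervals that held 0.

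Fibrillar and filament collagens went both ways in smooth muscle-like cells. Col1a1 rose from 177, 53.5 and 177 CPM to 354, 184 and 465 CPM, a log2 ratio of 1.17 (0.80 to 1.55). The groups were apart by a small margin, and the call was lost without NC library 2 (0.90) or CO library 3 (0.88), with a lead of 1 marker (0.74) and in thinned cells (0.26). Col6a2, a chain of the beaded filaments of collagen VI, rose from 14.7, 73.5 and 20.1 CPM to 80.9, 94.3 and 179 CPM, a ratio of 1.88 (1.13 to 2.70) on 19 and 67 UMIs. It lay between 1.48 and 2.72 when a library was left out, highest without NC library 2, and had too few UMIs for a call with a minimum of 100 counts or in thinned cells. Col5a1, a chain that starts type I fibrils, had 30 UMIs in NC (49.1, 26.7 and 64.3 CPM) and 0 in all 3 CO libraries. With the CO group set to a floor of 3 counts it was 9.59-fold lower (log2 ratio -3.26, upper limit -2.87). In thinned cells the log2 ratio of Col5a1 was 0.091. With 0 UMIs in CO this value also rests on the floor of 3 counts, so its sign does not show a rise. Leaving out NC library 1 (-3.27), 2 (-3.47) or 3 (-2.95) left too few UMIs for that call, and without CO library 1 or 2 the log2 ratio was -2.66 or -2.65. Col14a1 fell from 25 to 7 UMIs (-1.78, -3.23 to -0.53), and the call was lost without NC library 1 (-1.63), 2 (-1.24) or 3 (-2.38) or CO library 1 (-2.98). It was -0.35 with the stricter gate, -0.55 without the 10% of cells with most UMIs, -0.32 with a lead of 1 marker and 0.51 in thinned cells, which turns its sign. Col3a1, the fibrillar collagen with most UMIs here, gave -0.07 (-0.32 to 0.17). Fibroblast markers in this class were at 400 to 652 CPM in NC and 583 to 991 CPM in CO, with 1 of 8 higher in CO and Slc6a13, Islr, Fbln1 and Slc22a6 at 0; endothelial markers were at 494 to 1526 and 273 to 496 CPM, with none of 7 higher and Egfl7 and Emcn at 0. Their part was not tested.

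Glial and ventricular cells had fibrillar collagens of their own. In astrocyte-like cells Col5a2, a regulator of fibril width, fell from 111, 139 and 108 CPM in NC to 53.1, 58.1 and 45 CPM in CO, a log2 ratio of -1.19 (-1.50 to -0.89). The highest CO library was far under the lowest NC library, the call held without any 1 library, and it was lost with cells thinned to 2000 UMIs (-0.93). Col11a2 in the same cells stood at 641, 647 and 795 CPM in NC and 471, 650 and 610 CPM in CO, a ratio of -0.25 (-0.36 to -0.15) with overlap. Col11a1 in ependymal-like cells, the ciliated lining of the ventricles, stood at 1491, 1442 and 1381 CPM in NC and 969, 885 and 961 CPM in CO, a ratio of -0.62 (-0.70 to -0.54). The groups were clearly apart without reaching 2-fold.

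**Figure D4:**
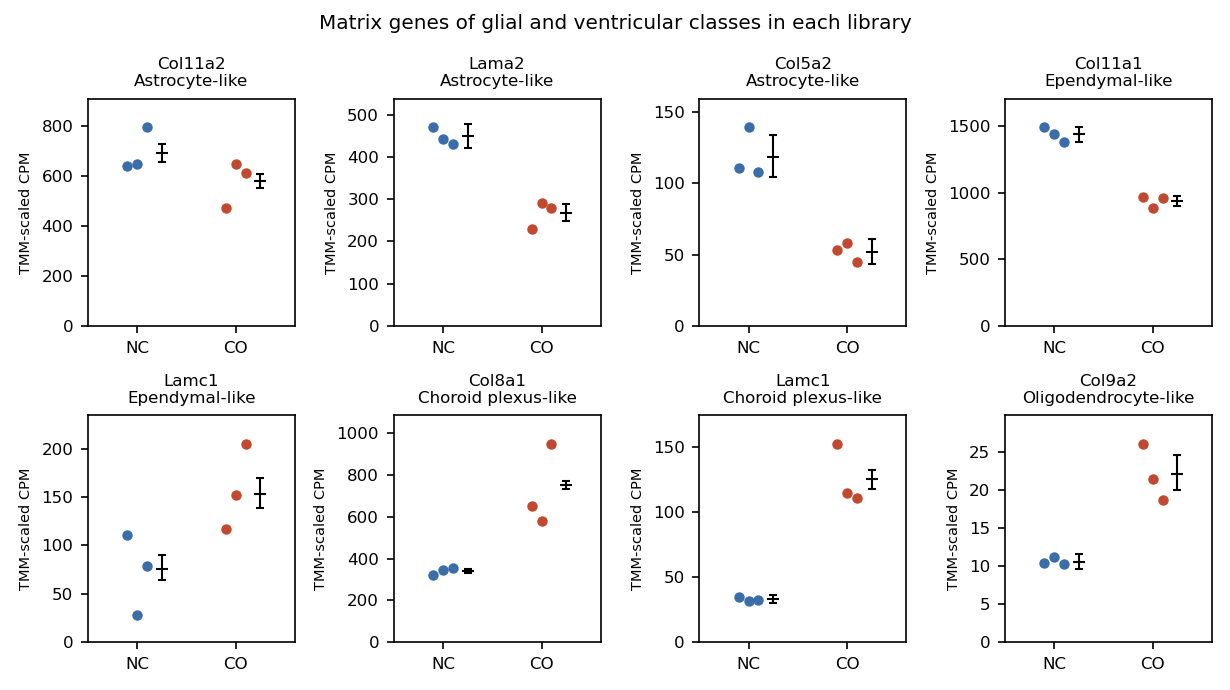
TMM-scaled CPM of 8 gene and class pairs in glial and ventricular classes (each axis starts at 0); coloured points are the 3 NC and 3 CO libraries and black marks the group value with its exact Poisson 95% interval. Col5a2 and Lama2 in astrocyte-like and Col11a1 in ependymal-like cells are lower in CO, while Lamc1 and Col8a1 in choroid plexus-like and Col9a2 in oligodendrocyte-like cells are higher.

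Col8a1, a short-chain collagen that forms hexagonal networks, was a main collagen of choroid plexus-like cells. It rose from 323, 345 and 356 CPM in NC to 649, 577 and 947 CPM in CO, a log2 ratio of 1.14 (1.08 to 1.19). All CO libraries were above all NC libraries, and without CO library 3, the highest, the ratio was 0.88 and not called. With cells thinned to 2000 UMIs it was 0.92, also not called. Median UMIs of choroid plexus-like cells were 40263 in NC and 28431 in CO. Its partner Col8a2 gave -0.18 (-0.33 to -0.04) in the same cells, with overlapping libraries. Fibril-associated Col9a3 was higher in CO there (0.83, 0.59 to 1.08, no overlap).

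Col9a2, a chain of the same collagen IX, was the member that changed in oligodendrocyte-like cells. It rose from 10.4, 11.2 and 10.2 CPM in NC to 26.0, 21.4 and 18.7 CPM in CO, a log2 ratio of 1.06 (0.86 to 1.27). The groups were apart; the ratio was 0.92 without CO library 1 and 0.73 in thinned cells, not called in either case. Col9a3 gave 0.23 (0.05 to 0.41) and Lamc1 0.45 (0.30 to 0.61) in these cells, both with libraries apart. Among myeloid cells, Col19a1 in macrophage-like cells stood at 120, 92.6 and 87.9 CPM in NC and 68.6, 73.7 and 103 CPM in CO, with an interval that held 0 (-0.29, -0.60 to 0.01). Col5a3, another fibril-width chain, was higher in CO in microglia-like cells (0.44, 0.31 to 0.58, no overlap).

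Of the multiplexins, collagens that carry an endostatin domain, Col18a1 was high in smooth muscle-like (392 CPM) and pericyte-like (383 CPM) cells. In pericyte-like cells it was lower in CO, at 405, 498 and 442 CPM in NC and 317, 363 and 320 CPM in CO (log2 ratio -0.43, -0.55 to -0.31). The groups did not overlap. In smooth muscle-like cells the ratio was 0.74 (0.46 to 1.02), and without CO library 3 it was 1.00 and called higher. Col7a1, highest in pericyte-like cells (125 CPM), was slightly higher there in CO (0.37, 0.15 to 0.59, no overlap). The transmembrane collagens Col13a1, Col17a1 and Col25a1 were called in no class.

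SPARC dominated the members by count, with 451162 of their 653165 UMIs in the classes. Its highest level was in fibroblast-like cells (4999 CPM), whose libraries overlapped those of microglia-like cells (4201 CPM). In microglia-like cells Sparc stood at 2958, 3054 and 3043 CPM in NC and 5020, 5101 and 5338 CPM in CO, a log2 ratio of 0.77 (0.76 to 0.78). The groups were wide apart relative to the spread of their libraries, and the difference was less than 2-fold. With cells thinned to 2000 UMIs, 92.2% of NC and 95.1% of CO microglia-like cells had a Sparc UMI (95.8% and 97% unthinned), against 3.59% and 1.08% of T or NK-like cells. Endothelial-like cells, at 2529, 2716 and 2740 CPM in NC and 2763, 2497 and 2624 CPM in CO, gave a ratio of -0.02 (-0.04 to 0.01).

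Outside microglia and endothelium Sparc had mostly higher values in CO. In astrocyte-like cells it stood at 607, 579 and 538 CPM in NC and 1327, 1197 and 966 CPM in CO, a log2 ratio of 1.00 (0.90 to 1.10) that fell just short of the call, with no overlap of the libraries. It was called without NC library 1 (1.05) or CO library 3 (1.12). Microglia markers in these cells were at 26.7 to 125 CPM in NC and 40.5 to 94.4 CPM in CO, with 4 of 8 higher in CO and P2ry13 at 0, and their part was not tested. Choroid plexus-like cells stood at 508, 503 and 520 CPM in NC and 739, 902 and 1062 CPM in CO (0.84, 0.80 to 0.89), and smooth muscle-like cells gave 0.74 (0.63 to 0.85); the groups were apart in both. In macrophage-like cells the ratio was 1.07 (0.85 to 1.29), from 180, 155 and 47.7 CPM to 117, 473 and 184 CPM. The libraries overlapped, and it was not called without NC library 3 (0.67), CO library 2 (0.25) or the 10% of cells with most UMIs (0.13). Pericyte-like cells gave -0.09 (-0.14 to -0.05) and fibroblast-like cells -0.38 (-0.46 to -0.31).

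The genes that modify, cut and bind this matrix were described in 5 lists: collagen processing and crosslinking, matrix receptors, matrix proteases and inhibitors, other matrix glycoproteins and proteoglycans, and TGF-beta signalling. In endothelial-like cells 4 of the 10 protease and inhibitor genes past the level were called higher (2.79% of all genes) and none lower (1.56%), and the median log2 ratio of the 16 compared was 0.72, against -0.0053 for all genes. They were Adamts9, a protease of large proteoglycans, and the metalloprotease inhibitors Timp1, Timp2 and Timp3. Adamts9 rose from 100, 110 and 104 CPM in NC to 473, 480 and 513 CPM in CO (2.22, 2.14 to 2.30), and Timp1 from 17.4, 19.0 and 22.8 CPM to 52.6, 41.5 and 76.8 CPM (1.53, 1.34 to 1.73). Both genes had groups well apart. The other 4 lists had no call among their 10, 9, 7 and 17 genes past the level. All 5 lists were chosen with earlier results of these data known, so their counts and medians are a description only.

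**Figure D5:**
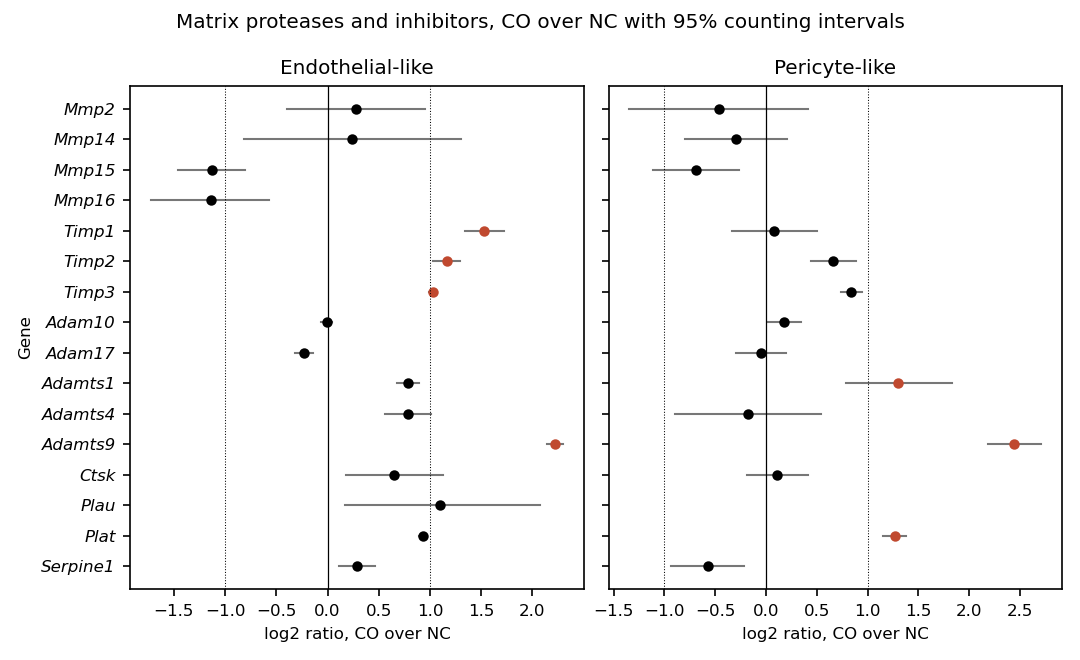
Log2 ratios of CO over NC (x axis) of the matrix protease and inhibitor genes compared in endothelial- and pericyte-like cells, with 95% counting intervals as bars, dotted lines at 2-fold, genes called higher in red and genes not called in black. Adamts9 stands farthest to the right in both classes.

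In pericyte-like cells, where 3.85% of all genes were called higher and 3.17% lower, the lists went both ways. Adamts9 rose from 49.6, 74.3 and 43.9 CPM to 323, 278 and 304 CPM (log2 ratio 2.45, 2.19 to 2.71). With Adamts1 and Plat it made 3 of 12 proteases and inhibitors called higher, none lower. Endothelial markers in pericyte-like cells were at 35.8% (NC) and 39.9% (CO) of their endothelial-like level. Their part in the values of this class was not tested. Of 19 processing genes, Fkbp10 (1.67) and Loxl2 (1.03) were called higher and Pcolce (-1.28) and P4ha1 (-1.03) lower. P4ha1, a catalytic subunit of the enzyme that hydroxylates prolines in collagen, stood at 1022 CPM in NC and 502 CPM in CO. Of 14 receptors, the integrin chain Itgb3 rose (1.28) and the syndecan Sdc4 fell (-3.44). Of 12 other glycoproteins, fibronectin (Fn1) rose from 310, 315 and 353 CPM to 607, 828 and 804 CPM (1.18, 1.07 to 1.30), while Spp1 (-2.55) and Postn (-1.78) fell. Of 18 TGF-beta genes, the inhibitory Smad6 rose (1.98). The list medians lay between -0.22 and 0.16, beside 0.0056 for all genes.

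In microglia-like cells, where 0.605% of all genes were called higher and 0.525% lower, 2 genes of the 5 lists were called. Serpinh1, the collagen-specific chaperone, fell from 45.1, 59.7 and 56.1 CPM to 19.7, 22.8 and 18.7 CPM (log2 ratio -1.40, -1.52 to -1.28), 1 of 9 processing genes past the level. Sdc4 fell from 46.4, 38.2 and 25.9 CPM to 6.41, 6.28 and 6.94 CPM (-2.48, -2.67 to -2.29), 1 of 8 receptors. Both had NC and CO libraries apart. In fibroblast-like cells, where 12.4% of all genes were called higher and 16% lower, calls of the lists ran in both directions: 3 higher and 6 lower of 19 processing genes, 3 and 2 of 10 receptors, 4 and 7 of 16 proteases and inhibitors, 3 and 4 of 14 glycoproteins, and 3 and 6 of 17 TGF-beta genes.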

How the data were processed

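Each of the 3 NC and 3 CO libraries was deposited as a table of unnormalized UMI counts for every gene in every barcode. Per the submitters' processing notes they were made with Cell Ranger on Rnor_6.0; versions and filters are not given in the sources used here. Members, gene lists and markers were chosen with earlier results of these data known. Barcodes were kept and gated as the report states; barcodes with markers of several classes were left out, and no doublet caller was run. The marker counts of the gate were set on the markers alone, after the files were read.

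Counts were summed over the 3 libraries of a group in each class with at least 30 cells per group, genes with at least 30 counts were compared, and TMM factors gave scaled CPM. Levels have exact Poisson and ratios exact Clopper-Pearson 95% intervals. A count of 0 was set to a floor of 3 counts over the group. The genes named were, in each class, up to 6 members with the highest mean CPM, each member called, the head-to-head collagen IV pairs and the chains Lama2, Lama4, Lama5, Lamb1, Lamb2 and Lamc1, and of each list up to 2 called genes at each end in endothelial-, pericyte-, fibroblast- and microglia-like cells; other members named for their level or ratio were chosen after their values were seen.

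Alternatives were scaling by total counts or median-of-ratios size factors, no minimum or 100 counts, cells of at least 2000 UMIs, thinning to 2000 UMIs, a stricter gate (4 markers, a lead of 3), leaving out the 10% of cells with most UMIs, leaving out each library, and edgeR's quasi-likelihood test with libraries as replicates, with and without the replicate number as a block. A lead of 1 marker and leaving out the most loaded cell were added after seeing the data. The ratio script was tested on simulated data. Promoter sequences were those of RefSeq (GRCr8), matched by symbol for 43 of 55 members. Tools were Python 3.11.15, numpy 2.4.6, scipy 1.17.1, pandas 2.3.3, R 4.3.3 and edgeR 4.0.16.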

Additional observations from a re-analysis of the deposited data

Results flagged for a closer look

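For 7 members past the level the NC and CO libraries were apart in opposite directions in different classes. None of these differences between classes was tested, and the same count was not made over all genes. Libraries were apart for 20.4% (fibroblast-like) to 54.7% (microglia-like) of all genes by class, so such members are not set apart from other genes. Lamc1 had a log2 ratio of 1.93 in choroid plexus-like and -0.65 in astrocyte-like cells, 2.58 apart. Agrn had 1.06 in smooth muscle-like and -1.53 in ependymal-like cells, 2.59 apart. Col4a4 had 0.29 in smooth muscle-like cells, with an interval that held 0, and -1.74 in macrophage-like cells, 2.03 apart. Col4a1 had 0.98 in endothelial-like and -0.41 in smooth muscle-like cells, 1.39 apart. Lamb2 had 0.50 in smooth muscle-like and -0.88 in astrocyte-like cells, 1.38 apart. Col4a5 had 0.50 in choroid plexus-like and -0.46 in endothelial-like cells, 0.96 apart. Nid1 had 0.51 in smooth muscle-like and -0.38 in pericyte-like cells, 0.89 apart.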

How the results depend on the processing

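Of the 23 called ratios, 20 kept their sign under all 16 alternatives that gave ratios, and 3 kept the call under all of them: Col4a2 in endothelial-like, Lamc1 in choroid plexus-like and Col4a3 in macrophage-like cells. The sign turned for Col5a1 (0.091) and Col14a1 (0.51) in smooth muscle-like cells with thinned cells. It also turned for Col26a1 in fibroblast-like cells without NC replicate 1 (0.26). That was the highest of its values with a library left out, the lowest being -3.82. The Col5a1 value rests on the floor of 3 counts, as CO had 0 UMIs, and does not show a rise. For Col14a1 and Col26a1 the cause was not tested. The share of all genes called under each alternative is not given here, so the following counts describe the settings and do not set members apart from other genes. Vascular members called higher (5) and lower (2) came to 17 and 14 with no minimum. They came to 3 and 0 with at least 100 counts, with thinned cells and with the stricter gate. Lower calls came to 0 without the 10% of cells with most UMIs and 1 without the most loaded cell. Glial and ventricular calls (4 higher, 2 lower) came to 20 and 32 with no minimum, and lower calls to 1 with at least 100 counts, 5 without the top 10% and 7 with a lead of 1 marker. Myeloid calls (1 and 2) came to 9 and 15 with no minimum; higher calls were 0 without the top 10%, with a lead of 1 and without the most loaded cell, and lower calls were 1 with at least 100 counts, thinned cells or the stricter gate. Fibroblast calls (1 and 6) came to 0 higher with at least 100 counts and without the most loaded cell, 3 higher with cells of at least 2000 UMIs, 4 with the stricter gate, 2 without the top 10% and 3 with a lead of 1, and lower calls to 3 with thinned cells and 10 with a lead of 1. Members highest in a myeloid class numbered 2 without the top 10%, against 1.

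Leaving out each library gave 3 to 5 vascular calls higher and 0 to 4 lower. In fibroblast-like cells it gave 1 to 4 and 2 to 8. Glial and ventricular classes had 4 to 5 and 2 to 6, and myeloid classes 0 to 1 and 1 to 3. The share of all genes is not given here for these settings either. Members highest in a class ranged from 17 to 21, 16 to 20, 11 to 12 and 1 to 2. At an adjusted p under 0.05 and any fold, edgeR with libraries as replicates called 13 vascular pairs higher and 5 lower. It called 16 and 13 glial and ventricular, 5 and 7 myeloid, and 0 fibroblast pairs (2 of 31 at an unadjusted p under 0.05). Called in either direction were 11 of 33 endothelial-like members (36% of all genes) and 6 of 29 pericyte-like members (13%). Smooth muscle-like cells had 1 of 21 (3.96%), fibroblast-like cells 0 of 31 (0.428%) and astrocyte-like cells 4 of 23 (3.56%). Oligodendrocyte-like cells had 10 of 39 (21.5%), ependymal-like cells 6 of 21 (13%) and choroid plexus-like cells 9 of 25 (22.8%). Microglia-like cells had 10 of 33 (34%) and macrophage-like cells 2 of 8 (7.58%). With the replicate number as a block the counts were 12 and 5, 16 and 12, 4 and 8, and 0 and 0 (2 unadjusted). Beside them, 0% to 35% of all genes were called by class. Same-numbered libraries did not deviate together in endothelial-, oligodendrocyte- and microglia-like cells (correlations from -0.0895 to 0.0594 over 9 pairs). Because the libraries of a group spread about as much as parts of 1 pool, this cannot decide whether the numbers pair samples. Depth limits the smooth muscle- and fibroblast-like classes most, with 71 and 46 cells in NC and 45 and 35 in CO.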

Other observations

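Of the members in trace amounts in oligodendrocyte-like cells, Col1a1 stood at 7.69 CPM in NC and 0.24 CPM in CO, and Col3a1 at 8.72 and 0.964 CPM, both under the level for a call. The summed fibroblast markers in the same cells were at 9.54 to 21.5 CPM over the NC libraries and 1.89 to 2.95 CPM over the CO libraries, with 1 of 8 higher in CO, and their part was not tested. Lamb2, also under the level there, had a log2 ratio of 0.76 (0.43 to 1.08).

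In neuroblast or neuron-like cells, a class outside the vascular, fibroblast, glial and myeloid classes, Sparc stood at 63.1, 13.2 and 18.1 CPM in NC and 175, 135 and 282 CPM in CO, a log2 ratio of 2.60. Microglia markers in this class were at 3.99 to 23.0 CPM in NC and 54.9 to 82.2 CPM in CO, with 7 of 8 higher in CO, and their part was not tested.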
